A study of Mus musculus with 18 samples.

Results

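MHC class I and immunoproteasome genes were measured by RNA sequencing across 3 region types of polycystic mouse kidney. The set holds 10 genes, taken by name from the 32285 genes of the count table: the class I heavy chains H2-K1 and H2-D1, their light chain B2m, the peptide transporter subunits Tap1 and Tap2, the loading factor Tapbp, the immunoproteasome subunits Psmb8, Psmb9 and Psmb10, and the transcriptional activator Nlrc5. All 10 were found, and all 10 were among the 16034 genes that passed the filter on low counts. All tissue came from male C57BL/6 mice of the iKspCre-Pkd1del line, labelled Pkd1 KO, which are homozygous for a tamoxifen-inducible Cre driven in kidney tubular epithelium and carry loxP sites on either side of Pkd1 exons 2 to 11. The mice were given tamoxifen by gavage, 12.5 mg/kg on postnatal days 18 and 19, and were killed at a mild cystic stage seen by MRI. Tissue was microdissected from frozen sections as F4/80-high cystic regions (6 libraries), F4/80-low cystic regions (6 libraries) and non-cystic regions (6 libraries). F4/80, the product of Adgre1, sits on the surface of mouse macrophages. Each of 3 kidneys gave 2 libraries of each region type, with a labelled age of 269 for kidneys 1 and 3 and 297 for kidney 2, with no unit. By these ages kidney 2 came from another mouse than kidneys 1 and 3. The labels do not say whether kidneys 1 and 3 came from separate mice. The deletion and tamoxifen are shared by all 18 libraries, non-cystic ones included, so every comparison is between regions of Pkd1-deleted kidneys and none is with undeleted tissue.

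Class I molecules display peptides from inside the cell to CD8 T cells and NK cells. The proteasome cuts proteins into peptides, the TAP1-TAP2 transporter carries the peptides into the endoplasmic reticulum, tapasin holds empty class I molecules at the transporter, and the loaded heavy chain leaves for the surface with beta-2 microglobulin. Interferon gamma is known to induce the whole route, in part by swapping the catalytic subunits of the proteasome for immunoproteasome subunits and in part through NLRC5, which acts at the SXY module of class I promoters. Most nucleated cells carry class I, kidney tubule cells included, and leukocytes carry much of it.

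The genes sit at 3 places in the genome (GENCODE M21, GRCm38). Chromosome 17 holds 7 of them, in and beside the mouse MHC: Tapbp at chr17:33915899-33929292, H2-K1 at chr17:33996017-34000347, Psmb9 at chr17:34181987-34187764, Tap1 at chr17:34187553-34197225, Psmb8 at chr17:34197721-34201454, Tap2 at chr17:34203527-34216321 and H2-D1 at chr17:35262730-35267499. Tap1 and Psmb9 run in opposite directions, and their annotated exons overlap by 212 bases at their starts. Chromosome 8 holds Nlrc5 (chr8:94434356-94527272) and Psmb10 (chr8:105935735-105938444), and B2m lies alone at chr2:122147686-122153083. The library kit does not mark the strand, so reads from overlapping genes on opposite strands cannot be told apart. Such overlaps cover 24.9% of the exon length of Tapbp (with Gm19412), 14.7% of Psmb8 and 4.36% of Tap2 (with Gm20496), 14.1% of Tap2 (with Gm15821), 5.79% of Psmb9 and 3.87% of Tap1 (with each other) and 0.92% of Nlrc5. Tapbp also shares 4.11% of its exon length with Zbtb22 on the same strand. H2-K1 and H2-D1 belong to a family of near-identical genes, so the split of reads between them and the other class I heavy chains is uncertain.

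The stretch before the transcription start is where the known class I and interferon elements lie, so 5 of these windows are shown to let the shared elements be seen. They are the 250 bases before the RefSeq start (GRCm38.p6), given 5′ to 3′ on the strand of the gene. Capitals mark every match, on either strand, to GAAANNGAA (core of the interferon-stimulated response element), TTCNNNGAA (gamma-activated sequence), GGGNNTTCC and GGGNNTTTC (kappa B cores), TGACG (the core of the X2 box, shared with the cyclic AMP element) and CCAAT (Y box), whose other strand reads ATTGG. For H2-K1 the table has 2 starts, and the window of the upstream one is shown.
B2m (chr2:122147437-122147686, plus strand): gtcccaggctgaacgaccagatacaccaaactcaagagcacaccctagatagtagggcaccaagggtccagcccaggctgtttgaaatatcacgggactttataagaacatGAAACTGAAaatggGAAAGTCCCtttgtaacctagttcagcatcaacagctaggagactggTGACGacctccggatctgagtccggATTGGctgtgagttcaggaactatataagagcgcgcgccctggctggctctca
H2-K1 (chr17:34000348-34000597, minus strand): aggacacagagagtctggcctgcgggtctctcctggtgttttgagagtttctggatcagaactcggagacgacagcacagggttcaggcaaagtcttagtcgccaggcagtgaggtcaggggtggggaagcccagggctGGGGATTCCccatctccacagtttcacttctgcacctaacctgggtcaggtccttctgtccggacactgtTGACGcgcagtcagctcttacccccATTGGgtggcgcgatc
H2-D1 (chr17:35262844-35263093, plus strand): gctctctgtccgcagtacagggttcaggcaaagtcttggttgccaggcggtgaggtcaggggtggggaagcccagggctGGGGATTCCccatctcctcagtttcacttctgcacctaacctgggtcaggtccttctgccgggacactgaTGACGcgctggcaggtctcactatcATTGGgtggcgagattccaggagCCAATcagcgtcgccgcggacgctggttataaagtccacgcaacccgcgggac
Tap1 (chr17:34187306-34187555, plus strand): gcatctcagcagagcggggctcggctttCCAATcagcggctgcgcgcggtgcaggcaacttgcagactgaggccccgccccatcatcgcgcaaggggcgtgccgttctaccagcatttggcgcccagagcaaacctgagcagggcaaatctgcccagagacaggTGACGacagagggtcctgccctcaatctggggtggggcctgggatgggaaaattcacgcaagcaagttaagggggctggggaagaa
Psmb8 (chr17:34197945-34198194, plus strand): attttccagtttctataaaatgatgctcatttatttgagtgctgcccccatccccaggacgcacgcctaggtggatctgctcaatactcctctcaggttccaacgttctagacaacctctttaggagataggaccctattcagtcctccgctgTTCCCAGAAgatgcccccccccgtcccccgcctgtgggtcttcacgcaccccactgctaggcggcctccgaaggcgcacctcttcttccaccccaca
The windows of 8 of the 10 genes were in the table, all but Tap2 and Nlrc5. TGACG occurred in 5 of the 8 (B2m, H2-D1, H2-K1, Psmb9 and Tap1) and in 17.86% of the windows of all 27025 genes, and CCAAT occurred in 6 of the 8 (the same 5 and Tapbp), against 34.46% of all genes. In B2m, H2-K1 and H2-D1, TGACG was followed after 20 bases by ATTGG, an arrangement held by 25 of the 27025 genes (0.0925%), among them the class I gene H2-M3. This spacing was looked for after the windows had been seen. The kappa B core GGGNNTTCC was in H2-K1 and H2-D1 (4.881% of all genes), and GGGNNTTTC in B2m (3.785%). GAAANNGAA was in B2m (7.156% of all genes) and TTCNNNGAA in Psmb8 (7.179%). Tap1 and Psmb9 share 225 bases of their windows, so their TGACG and CCAAT matches are the same sites read from opposite sides. These matches describe letters in the windows and are not evidence of binding.

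Library totals were 5841975 to 8662288 counts in F4/80-high regions, 7186518 to 9188813 in F4/80-low regions and 5366651 to 9002054 in non-cystic regions. Mitochondrial genes took 1.49% to 4.06% of the counts in F4/80-high regions, 7.71% to 11.1% in F4/80-low regions and 10.6% to 15.4% in non-cystic regions. Levels are in CPM, the counts of a gene scaled to a common library size, from both libraries of a kidney and region together, and fold changes are log2 values with their standard error from edgeR's quasi-likelihood test with the kidney as a block. A gene is called higher or lower where its p, adjusted over all tested genes by Benjamini and Hochberg's method, is below 0.05. Adgre1 averaged 53.9 ± 14.9 CPM in F4/80-high regions, 6.55 ± 1.65 CPM in F4/80-low regions and 2.56 ± 0.96 CPM in non-cystic tissue (SD, n = 3 kidneys), which is the order of the labels by which the regions were cut and is not a finding. Pkd1 was detected in every library, at 5.97 to 21.5 CPM in F4/80-high, 4.11 to 11.0 CPM in F4/80-low libraries and 3.52 to 8.78 CPM in non-cystic libraries on total counts. Its counts cover the whole gene, including exons outside the deleted part and cells without Cre, so they do not check the deletion.

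All 10 genes were higher in F4/80-high cystic regions than in non-cystic regions, by 1.22 to 3.19 on the log2 scale with a median of 1.86. Over all tested genes the median was 0.04, and 19.7% were called higher. In every one of the 10, all 3 F4/80-high values lay above all 3 non-cystic values, a separation that 26.8% of all tested genes showed. Psmb8 changed most and Tapbp least. In bulk tissue a rise in the number of cells that express a gene and a rise in RNA per cell cannot be told apart.

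**Figure D1:**
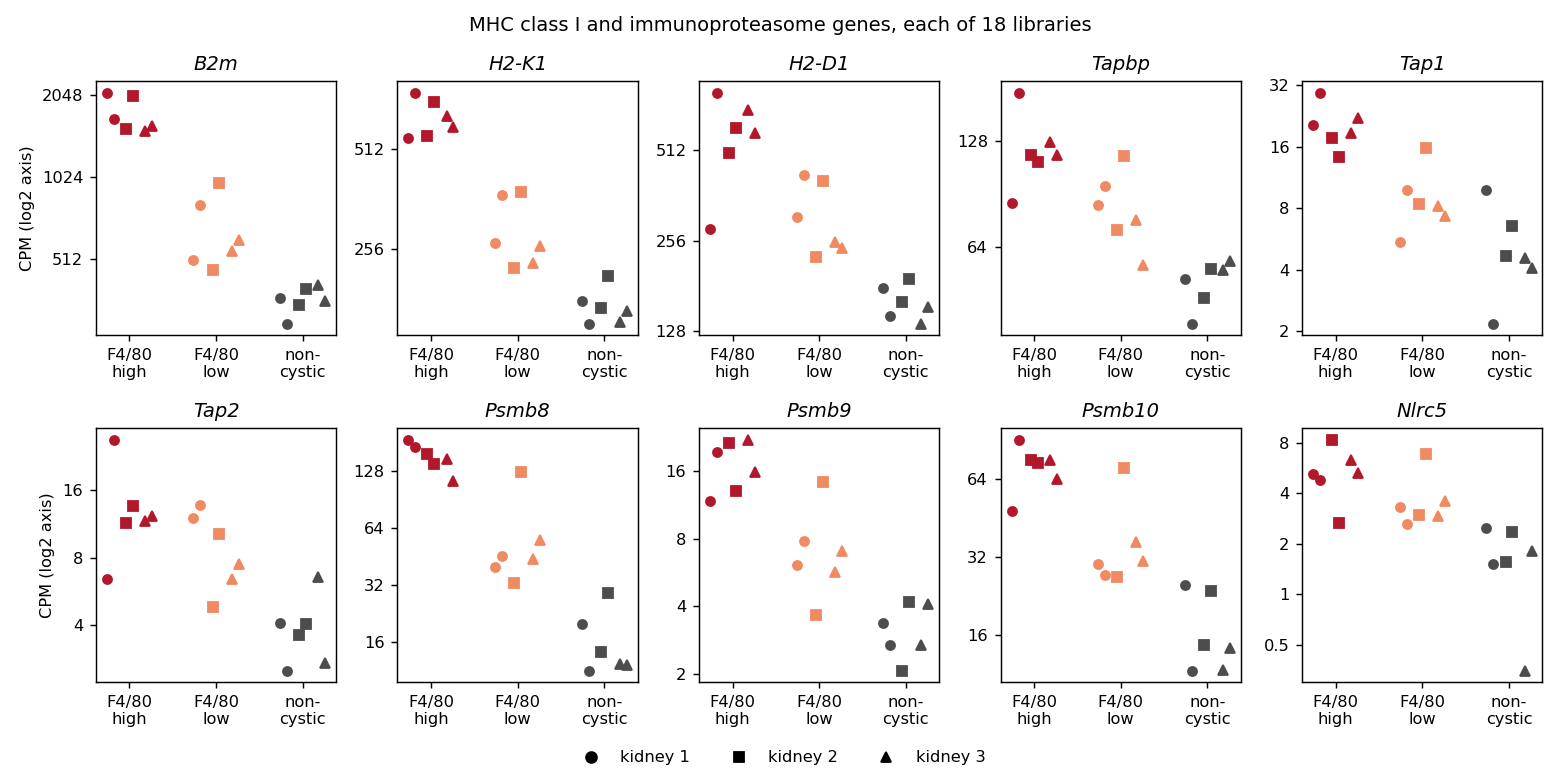
Level of each gene in each of the 18 libraries, in CPM on a log2 axis, by region type (F4/80-high, F4/80-low, non-cystic). Each point is a library and its shape gives the kidney. For Psmb8, the libraries of F4/80-low kidney 2 lie at both ends of their group, 1 of them at 126.3 CPM among the F4/80-high libraries.

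B2m encodes the light chain that every class I molecule needs to fold and reach the surface. Its level was 1851, 1792 and 1524 CPM in the F4/80-high regions of kidneys 1, 2 and 3, against 662, 700.1 and 583 CPM in F4/80-low regions and 339.9, 383 and 396 CPM in non-cystic regions. The 3 region types did not overlap. B2m rose by 2.202 ± 0.267 in F4/80-high against non-cystic regions (adjusted p = 0.0003389), a 4.602-fold change, and by 1.41 ± 0.26 against F4/80-low regions (adjusted p = 0.005557). The difference of 0.79 ± 0.26 between F4/80-low and non-cystic regions did not pass (adjusted p = 0.2242).

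H2-K1 and H2-D1 encode the classical heavy chains K and D, which bind the peptide. H2-K1 stood at 633, 633 and 613 CPM in F4/80-high regions of kidneys 1 to 3, 320.2, 295 and 251 CPM in F4/80-low regions, and 169, 198 and 159 CPM in non-cystic regions. H2-D1 stood at 513, 554 and 640.1 CPM in F4/80-high regions, 367, 308 and 252 CPM in F4/80-low regions, and 164, 181 and 142 CPM in non-cystic regions. Both genes were separated between all 3 region types, and their changes were of like size. In F4/80-high against non-cystic regions H2-K1 rose by 1.84 ± 0.22 (adjusted p = 0.0003164) and H2-D1 by 1.82 ± 0.25 (adjusted p = 0.0005542). In F4/80-high against F4/80-low regions H2-K1 rose by 1.12 ± 0.22 (adjusted p = 0.006358) and H2-D1 by 0.90 ± 0.24 (adjusted p = 0.02461), and without replicate 2 of F4/80-high kidney 1 the H2-D1 difference was 0.64 (adjusted p = 0.2204). The ratio of H2-D1 to H2-K1 counts was 0.507 in the library of F4/80-high kidney 1 replicate 1 and 0.861 to 1.15 in the 17 other libraries.

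The transporter and its partner were present at much lower levels than the chains they load. Tap1, the first subunit of the transporter, had 24.1, 15.6 and 19.9 CPM in F4/80-high regions, 7.68, 11.8 and 7.90 CPM in F4/80-low regions and 6.01, 5.85 and 4.43 CPM in non-cystic regions. It rose by 1.88 ± 0.27 in F4/80-high against non-cystic regions (adjusted p = 0.0006962) and by 1.13 ± 0.26 against F4/80-low regions (adjusted p = 0.01303). Tap2, the partner subunit, had 15.7, 12.4 and 11.8 CPM in F4/80-high regions, 12.9, 7.29 and 7.07 CPM in F4/80-low regions and 3.36, 3.95 and 5.28 CPM in non-cystic regions. It rose by 1.63 ± 0.30 in F4/80-high against non-cystic regions (adjusted p = 0.002386), while F4/80-high and F4/80-low regions overlapped (0.57 ± 0.28, adjusted p = 0.1737). Tapbp, which encodes tapasin, had 125.5, 113 and 121 CPM in F4/80-high regions, 90.3, 92.1 and 67.8 CPM in F4/80-low regions and 46.0, 52.1 and 56.4 CPM in non-cystic regions. Its rise in F4/80-high against non-cystic regions was 1.22 ± 0.18 (adjusted p = 0.000963). Against F4/80-low regions its difference of 0.53 ± 0.18 had an adjusted p of 0.06, although the values did not overlap, and it was called under 13 of 34 alternatives.

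The immunoproteasome subunits are made in place of 3 constitutive subunits and change which peptide ends the proteasome leaves. Psmb8, the subunit LMP7, had 176, 145 and 131 CPM in F4/80-high regions, 42.7, 75.1 and 50.01 CPM in F4/80-low regions and 15.8, 23.3 and 12.2 CPM in non-cystic regions. The region types were fully separated, and Psmb8 was higher by 3.19 ± 0.24 in F4/80-high against non-cystic regions (adjusted p = 2.978e-05, 9.15-fold) and by 1.47 ± 0.22 against F4/80-low regions (adjusted p = 0.002622). Psmb9, the subunit LMP2, had 15.0, 16.6 and 19.0 CPM in F4/80-high regions, 7.00, 8.47 and 6.47 CPM in F4/80-low regions and 3.09, 3.36 and 3.18 CPM in non-cystic regions. It rose by 2.39 ± 0.23 (adjusted p = 0.0001123) in F4/80-high against non-cystic regions and by 1.20 ± 0.22 (adjusted p = 0.005229) against F4/80-low regions. Psmb10, the subunit MECL-1, had 66.6, 73.6 and 69.4 CPM in F4/80-high regions, 29.0, 46.6 and 34.4 CPM in F4/80-low regions and 18.6, 20.3 and 12.7 CPM in non-cystic regions. It rose by 2.04 ± 0.19 (adjusted p = 0.0001034) in F4/80-high against non-cystic regions and by 0.95 ± 0.19 (adjusted p = 0.007036) against F4/80-low regions. The immunoproteasome subunits did not keep a fixed proportion to each other. The ratio of Psmb10 to Psmb8 counts was 0.379, 0.506 and 0.530 in F4/80-high regions, 0.680, 0.620 and 0.687 in F4/80-low regions and 1.17, 0.871 and 1.04 in non-cystic regions, so its groups did not overlap; this ratio was picked after its values were seen and was not tested.

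Nlrc5 encodes the activator that binds class I promoters through the RFX complex and drives class I heavy chain genes, B2m, Tap1 and Psmb9. It was the scarcest of the 10, with 93, 105 and 105 counts in the F4/80-high sums, 44, 72 and 44 in the F4/80-low sums and 23, 28 and 11 in the non-cystic sums. In CPM these were 4.89, 5.20 and 5.80 in F4/80-high regions, 2.99, 4.73 and 3.31 in F4/80-low regions and 2.03, 2.05 and 0.854 in non-cystic regions. It rose by 1.73 ± 0.39 in F4/80-high against non-cystic regions (adjusted p = 0.006323), with the largest standard error of the set. F4/80-high and F4/80-low regions did not differ beyond the spread (0.56 ± 0.36, adjusted p = 0.2904).

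In F4/80-high against F4/80-low cystic regions, 7 of the 10 genes were called higher (B2m, H2-K1, H2-D1, Tap1, Psmb8, Psmb9 and Psmb10), with a median of 1.04 over all 10 against 0.04 over all tested genes. The share of all tested genes called higher was 10.3%. In 9 of the 10, all but Tap2, the 3 F4/80-high values lay above all 3 F4/80-low values, which 22.1% of all tested genes did. The count was 1 without kidney 1, 4 without kidney 2 and 3 without replicate 1 of F4/80-low kidney 2, and no other omission of a kidney or library moved it by more than 1.5 times. The median over the 10 was then 0.99, 1.10 and 0.85, with all 10 positive in each. Fits on 2 kidneys leave fewer residual degrees of freedom, and the share of all tested genes called in these fits is not given here. A lost call there is thus not by itself a smaller difference.

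In F4/80-low cystic against non-cystic regions, the 3 immunoproteasome genes were called higher and the other 7 were not. Psmb8 rose by 1.72 ± 0.23 (adjusted p = 0.007724), Psmb9 by 1.18 ± 0.23 (adjusted p = 0.03852) and Psmb10 by 1.09 ± 0.19 (adjusted p = 0.02566). The other 7 differed by 0.69 to 1.17, all in the same direction, with adjusted p from 0.1099 for H2-D1 to 0.2739 for Tap1. In all 10 the F4/80-low values lay above the non-cystic values, as they did in 10.5% of all tested genes. The median was 0.99 against 0.0026 over all tested genes, of which 1.51% were called higher and 0.0249% lower. The calls changed with the samples kept. Without replicate 2 of F4/80-low kidney 2, none of the 10 was called, and Psmb8 was higher by 1.32 (adjusted p = 0.09803), Psmb10 by 0.83 (adjusted p = 0.1495) and Psmb9 by 0.82 (adjusted p = 0.3597). In that library Spp1, the osteopontin gene, took 8.898% of the counts, against 0.241% to 2.09% in the other F4/80-low libraries and 6.41% to 14.07% in the F4/80-high libraries, while its mitochondrial share was 7.708%, the lowest of the F4/80-low libraries and above every F4/80-high library. The part of this in the calls was not tested. The count was also 0 without kidney 1, it was 6 without kidney 3, and it was 1 without kidney 2 or without any of replicate 2 of F4/80-high kidney 1, replicate 1 of F4/80-low kidney 3, replicate 2 of non-cystic kidney 1 and replicate 1 of non-cystic kidney 2. Without kidney 1 Psmb8 was higher by 1.84, Psmb10 by 1.30 and Psmb9 by 1.17, near or above the values from all kidneys. The median of the 10 was then 0.85. Fits on 2 kidneys leave fewer residual degrees of freedom, and the share of all tested genes called in these fits is not given here. The F4/80-high and F4/80-low comparisons with non-cystic tissue share the non-cystic samples, so their agreement is not independent.

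**Figure D2:**
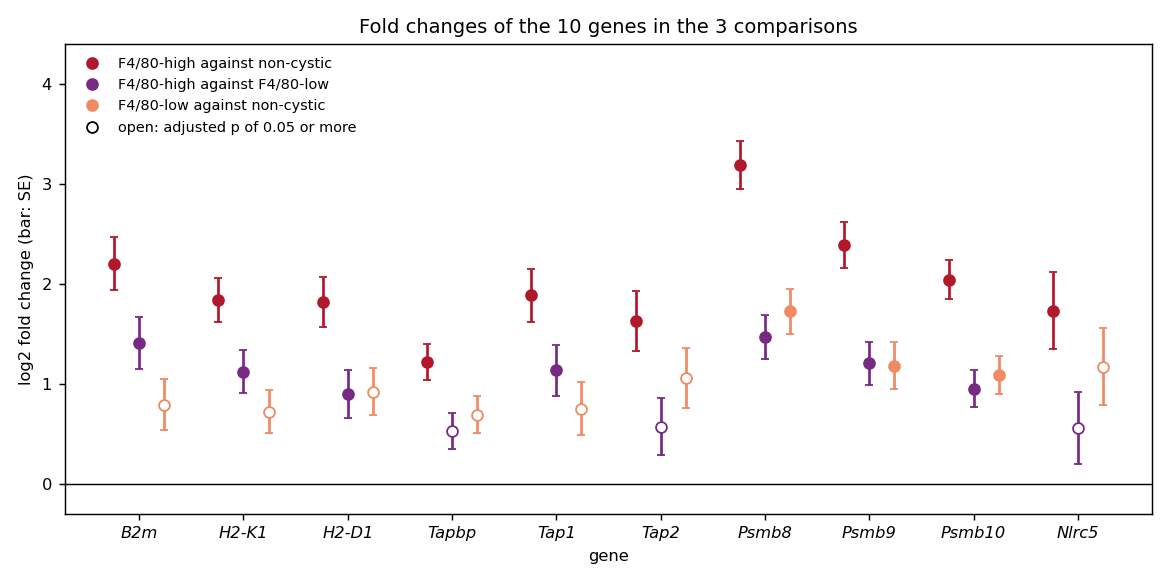
Log2 fold change of each gene in the 3 comparisons, with its standard error as a bar (n = 3 kidneys a region type). Filled points passed an adjusted p of 0.05, which 10 genes did in F4/80-high against non-cystic regions, 7 in F4/80-high against F4/80-low regions and 3 in F4/80-low against non-cystic regions.

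Per kilobase of the main transcript, levels in the set spanned more than 3 orders of size. In F4/80-high regions B2m stood at 2003 ± 203 CPM per kb, H2-K1 at 387 ± 7.08, H2-D1 at 271 ± 30.9, Psmb8 at 92.6 ± 14.0 and Psmb10 at 53.3 ± 2.68 (SD, n = 3). Tapbp followed at 41.4 ± 2.18 CPM per kb, Psmb9 at 12.5 ± 1.49, Tap1 at 6.74 ± 1.44, Tap2 at 3.86 ± 0.61 and Nlrc5 at 0.70 ± 0.06. No neighbours in this order overlapped over the 3 kidneys. In non-cystic regions the order was B2m at 434 ± 34.0 CPM per kb, H2-K1, H2-D1, then Tapbp at 17.8 ± 1.79, Psmb10 at 13.1 ± 3.01 and Psmb8 at 10.5 ± 3.47, whose values overlapped those of Psmb10. Psmb8 thus stood below Tapbp per kb in non-cystic tissue and above it in F4/80-high tissue. The order of the heavy chains depends on the length used, since per kb of all annotated exons H2-D1 stood at 221 and H2-K1 at 213 CPM per kb in F4/80-high regions.

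To set each immunoproteasome subunit against the constitutive subunit whose place it takes, counts were divided within each sum, which needs no scaling between libraries. The count ratio of Psmb8 to Psmb5 was 1.75, 1.12 and 1.51 in F4/80-high regions, 0.322, 0.423 and 0.281 in F4/80-low regions and 0.0923, 0.132 and 0.0982 in non-cystic regions. In F4/80-high tissue Psmb8 had more counts than Psmb5, and in non-cystic tissue it had far fewer. The ratio of Psmb9 to Psmb6 was 0.0249, 0.0286 and 0.0574 in F4/80-high regions, 0.0148, 0.0120 and 0.0089 in F4/80-low regions and 0.00404, 0.00510 and 0.00587 in non-cystic regions. The ratio of Psmb10 to Psmb7 was 0.699, 0.677 and 0.944 in F4/80-high regions, 0.237, 0.321 and 0.201 in F4/80-low regions and 0.114, 0.136 and 0.0884 in non-cystic regions. All 3 ratios were separated between all 3 region types, in the order F4/80-high, F4/80-low, non-cystic in 3 of 3 kidneys. Between F4/80-high and non-cystic regions the log2 ratio differed by 3.76 ± 0.60 for Psmb8 to Psmb5 (SD over 3 kidneys, 13.5-fold), by 2.80 ± 0.43 for Psmb9 to Psmb6 (6.96-fold) and by 2.78 ± 0.57 for Psmb10 to Psmb7 (6.88-fold). Between F4/80-low and non-cystic regions the differences were 1.67 ± 0.14, 1.24 ± 0.64 and 1.16 ± 0.09 for these pairs. An exact permutation of the region labels within kidneys over the 3 region types gave p = 0.0278 for each pair, the smallest that the design allows, and 0.0278 after adjustment over the 3 pairs.

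**Figure D3:**
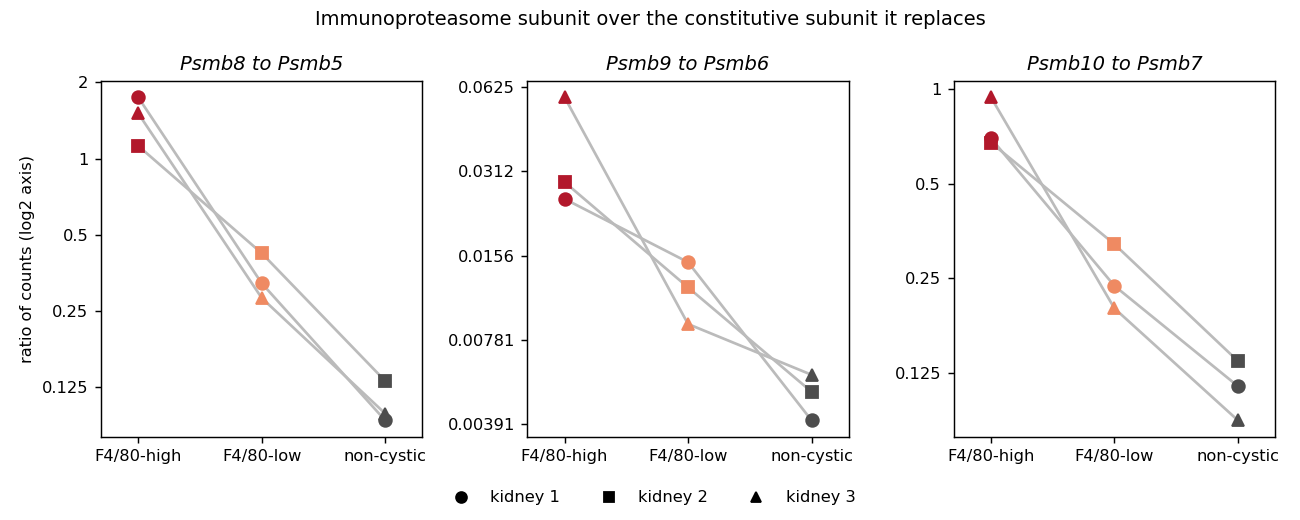
Count ratio of each immunoproteasome subunit to the constitutive subunit it replaces, on a log2 axis, by region type and kidney (lines join a kidney). In each panel every F4/80-high point lies above every F4/80-low point, and every F4/80-low point above every non-cystic point.

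The constitutive subunits did not rise with their replacements. Psmb7, the constitutive trypsin-like subunit, was at 95.3, 109 and 73.6 CPM in F4/80-high regions, 122.6, 145 and 171 CPM in F4/80-low regions and 163, 148 and 144 CPM in non-cystic regions. It was lower by -0.72 ± 0.21 in F4/80-high against non-cystic regions (adjusted p = 0.02271) and by -0.67 ± 0.21 against F4/80-low regions (adjusted p = 0.04734), where 19.5% and 14.0% of all tested genes were called lower. The first call was lost, at -0.67 (adjusted p = 0.0545), when F4/80-high kidney 1 was left with replicate 1 only, without kidney 1 (-0.71, adjusted p = 0.1183) and without kidney 2 (-0.88, adjusted p = 0.07586). The second was lost when any 1 kidney was left out. It was also lost without any of several single libraries, such as replicate 2 of F4/80-high kidney 1 (-0.62, adjusted p = 0.1002). An opposite-strand overlap with Nek6 covers 11.8% of the exon length of Psmb7. Psmb5, the chymotrypsin-like subunit, differed by -0.58 ± 0.21 in F4/80-high against non-cystic regions (adjusted p = 0.05018), and Psmb6, the caspase-like subunit, by -0.40 ± 0.31 (adjusted p = 0.3359). Scaling moves these values. With total counts in place of trimmed means the median of all genes was 0.65 in F4/80-high against non-cystic regions, and there Psmb5 stood at 0.031, Psmb6 at 0.21 and Psme3, described next, at 0.035, so the direction of these genes holds relative to the bulk of genes only. None of the 11 other subunits of the 20S core was called in any comparison, with a median of -0.23 in F4/80-high against non-cystic regions. Of the 17 subunits of the 19S cap, Psmd3 was lower (-1.003 ± 0.233, adjusted p = 0.007606) and 16 were not called, with a median of -0.31. Without kidney 1 Psmd3 was at -0.70 (adjusted p = 0.07687). In the 6 genes of the activators and assembly factors, Psme1 and Psme2, the interferon-inducible subunits of the PA28 ring, were higher by 1.09 ± 0.18 (adjusted p = 0.00165) and 0.73 ± 0.23 (adjusted p = 0.02774), while Psme4, the nuclear activator PA200, was lower (-0.95 ± 0.17, adjusted p = 0.002058), as was Psme3, the nuclear PA28 gamma ring (-0.59 ± 0.17, adjusted p = 0.01941). Psme2 was at 0.73 (adjusted p = 0.06059) without replicate 1 of F4/80-low kidney 2, and Psme3 at -0.50 (adjusted p = 0.06797) without replicate 1 of F4/80-high kidney 3. Without kidney 1 Psme2 was at 0.58 (adjusted p = 0.1507) and Psme3 at -0.49 (adjusted p = 0.1477). Without kidney 2 Psme2 was at 0.71 (adjusted p = 0.1711) and Psme3 at -0.56 (adjusted p = 0.1419). Of all tested genes 19.7% were called higher in F4/80-high against non-cystic regions.

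**Figure D4:**
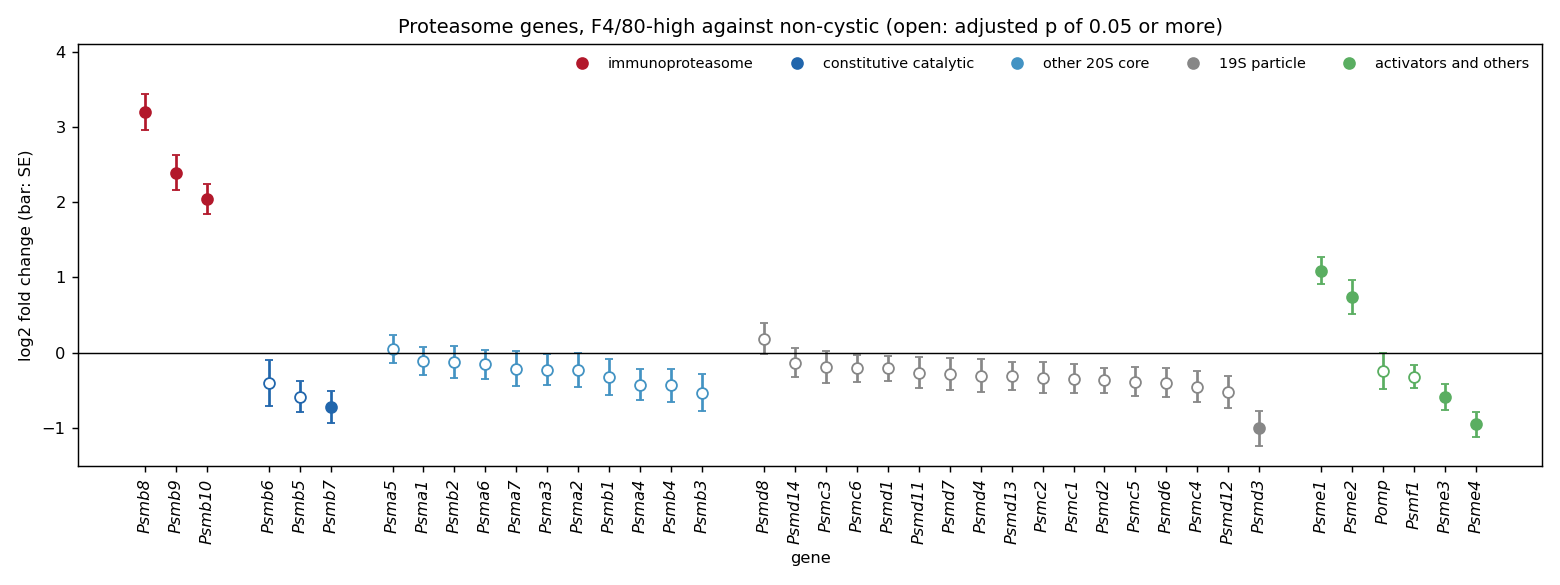
Log2 fold change in F4/80-high against non-cystic regions for each gene of the proteasome lists, with its standard error as a bar (n = 3 kidneys a region type). The immunoproteasome genes lie between 2.04 and 3.19 and Psme1 and Psme2 at 1.09 and 0.73, while every other gene lies below 0.20.

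Among other genes of the class I route, change was uneven. Of 13 tested nonclassical and other class I heavy chains, 8 were higher and 1 lower in F4/80-high against non-cystic regions, with a median of 1.60. Of these, H2-M3, which presents formylated peptides, was higher by 2.52 ± 0.30 (adjusted p = 0.0002911), Cd1d1, which presents lipids to NKT cells, by 2.91 ± 0.47 (adjusted p = 0.001395), Mr1, which presents vitamin B metabolites to MAIT cells, by 2.198 ± 0.451 (adjusted p = 0.005108) and H2-Q7, the Qa-2 antigen, by 1.86 ± 0.38 (adjusted p = 0.005892). The lower one, named after its value was seen, was Fcgrt (-0.64 ± 0.22, adjusted p = 0.0446), whose product pairs with beta-2 microglobulin to carry immunoglobulin G and albumin. The Fcgrt call depended on single libraries, with an adjusted p of 0.07823 without replicate 1 of F4/80-high kidney 1. Counts of H2-Q7 and Cd1d1 can share reads with near-identical copies and are uncertain. In F4/80-high against F4/80-low regions 3 of the 13 were higher (H2-M3, Cd1d1 and Mr1), and in F4/80-low against non-cystic regions none was called. Of all tested genes 10.3% and 1.51% were called higher in these comparisons. Without kidney 1 the 3 calls were lost (adjusted p = 0.05027 for H2-M3, 0.07468 for Cd1d1 and 0.05762 for Mr1), and 5 of the 13 were higher in F4/80-high against non-cystic regions. Of the 11 genes for loading and trimming, which include the chaperones of the endoplasmic reticulum, 2 were higher in F4/80-high against non-cystic regions: Tapbpl, a peptide editor related to tapasin, by 1.17 ± 0.23 (adjusted p = 0.003647) and Erap1, which trims peptides in the endoplasmic reticulum, by 0.85 ± 0.20 (adjusted p = 0.007876). The cytosolic peptidase Ide was lower (-0.79 ± 0.18, adjusted p = 0.006595). The calls of Erap1 (adjusted p = 0.09992) and Ide (adjusted p = 0.05043) were lost without kidney 1, and that of Tapbpl (adjusted p = 0.06092) without replicate 2 of F4/80-high kidney 1. Cast lies opposite 11.46% of the exon length of Erap1. The median of these 11 was 0.02, and none was called in the other comparisons. In F4/80-high against non-cystic regions 19.7% of all tested genes were called higher and 19.5% lower. The 11 were thus called no more often than all tested genes.

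Regulators known to act on these promoters were examined beside Nlrc5. Of 17 tested, 8 were higher and 1 lower in F4/80-high against non-cystic regions, where 19.7% and 19.5% of all tested genes were. The median of the 17 was 0.68. The lower one, named after its value was seen, was Nfyc (-0.72 ± 0.17, adjusted p = 0.008303), a subunit of the factor NF-Y that binds CCAAT, and without kidney 1 it was at -0.59 (adjusted p = 0.0921). Irf1, an interferon-induced activator of Tap1, Psmb9 and Nlrc5, was at 25.9, 24.4 and 33.1 CPM in F4/80-high regions, 17.9, 21.5 and 15.2 CPM in F4/80-low regions and 7.07, 8.34 and 3.73 CPM in non-cystic regions. It was higher by 2.17 ± 0.29 in F4/80-high (adjusted p = 0.0004997) and by 1.53 ± 0.28 in F4/80-low regions (adjusted p = 0.03074), each against non-cystic regions. Ciita, the class II counterpart of Nlrc5, was higher by 2.16 ± 0.23 in F4/80-high (adjusted p = 0.0001866) and by 1.13 ± 0.23 in F4/80-low regions (adjusted p = 0.04574), each against non-cystic regions. Without replicate 2 of F4/80-low kidney 2, the F4/80-low difference was 1.31 for Irf1 (adjusted p = 0.1285) and 0.69 for Ciita (adjusted p = 0.3374). It was 1.62 for Irf1 (adjusted p = 0.2704) and 1.09 for Ciita (adjusted p = 0.3623) without kidney 1. Without kidney 2 it was 1.64 (adjusted p = 0.06863) and 0.89 (adjusted p = 0.335). Both calls were also lost without some other single libraries, such as replicate 1 of F4/80-low kidney 3. Irf9, which carries type I interferon signals to the nucleus, was higher by 1.71 ± 0.24 in F4/80-high against non-cystic regions (adjusted p = 0.0007273).

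The interferons themselves were hardly seen. Ifng had 12 counts over the 6 F4/80-high libraries, 9 over the 6 F4/80-low libraries and 0 over the 6 non-cystic libraries, and Ifnb1 had 0, 0 and 1, so neither was tested. Their receptors were readily measured, and 5 of the 7 tested genes of this list were higher in F4/80-high against non-cystic regions (Ifngr1, Ifngr2, Ifnar1, Ifnar2 and the kinase gene Jak2). Without kidney 1 the count was 3, with Ifnar2 (adjusted p = 0.05483) and Jak2 (adjusted p = 0.2072) lost, and Jak2 was also lost without kidney 2 or replicate 1 of F4/80-high kidney 2. The interferon gamma receptor chains Ifngr1 and Ifngr2 were higher by 2.03 ± 0.19 (adjusted p = 0.0001005) and 1.89 ± 0.23 (adjusted p = 0.0003635). Of 19 interferon-induced genes with no role in presentation, 13 were higher in F4/80-high against non-cystic regions (median 1.97). In F4/80-low against non-cystic regions 3 were higher (median 1.56), and in F4/80-high against F4/80-low regions 2, Xaf1 and Bst2 (median 0.42). The share of all tested genes called higher was 19.7%, 1.51% and 10.3% in these 3 comparisons. The 2 of 19 are thus near the share of all genes. The members of this list called in F4/80-low regions were the guanylate-binding proteins Gbp2 (2.62 ± 0.39, adjusted p = 0.01691), Gbp3 (2.09 ± 0.36, adjusted p = 0.02398) and Gbp7 (1.56 ± 0.27, adjusted p = 0.02431). None of the 19 was called in F4/80-low against non-cystic regions when either library of F4/80-low kidney 2 was left out, but the values moved in opposite directions. Gbp2, Gbp3 and Gbp7 stood at 3.06, 2.52 and 1.93 without replicate 1, and at 1.70, 1.29 and 0.94 without replicate 2. Higher calls among the 19 in F4/80-high against F4/80-low regions numbered 0 without replicate 1 and 10 without replicate 2. Without kidney 1, 8 of the 19 were higher in F4/80-high against non-cystic regions. The summed level of the 19 genes was 785 CPM in F4/80-low kidney 2 and 269 and 249.2 CPM in F4/80-low kidneys 1 and 3, so the kidney that was high for Psmb8 and Nlrc5 was high here too.

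Markers of other cell types differed between the same regions. In F4/80-high against non-cystic regions all 6 pan-leukocyte markers, all 10 macrophage markers and all 6 tested dendritic cell markers were higher. So were 9 of 11 T and NK cell markers, all 6 tested fibroblast markers and 2 of 4 B cell markers, while 6 of 7 proximal tubule markers were lower. Of all tested genes 19.7% were called higher and 19.5% lower. Of 7 endothelial markers Pecam1 was higher (0.70 ± 0.21, adjusted p = 0.02641), Flt1 was lower (-0.65 ± 0.19, adjusted p = 0.02533) and 5 were not called. Single libraries decided both calls, since Pecam1 was at 0.19 (adjusted p = 0.5498) without replicate 1 of F4/80-high kidney 3 and Flt1 at -0.47 (adjusted p = 0.1902) without replicate 2 of that kidney and region. Of 8 markers of other tubule epithelium, the keratins Krt8 (1.47 ± 0.24, adjusted p = 0.001446) and Krt18 (2.22 ± 0.55, adjusted p = 0.01723) and the adhesion gene Epcam (1.43 ± 0.26, adjusted p = 0.002794) were higher, and the salt transporter genes Slc12a1 and Slc12a3 and the cadherin gene Cdh16 were lower. The call was lost for Slc12a1 without replicate 2 of non-cystic kidney 3 (adjusted p = 0.564) or replicate 1 of non-cystic kidney 1 (adjusted p = 0.1472), for Slc12a3 without replicate 1 of F4/80-low kidney 2 (adjusted p = 0.3517) or kidney 1, for Cdh16 without kidney 1 or 2, and for Krt18 without kidney 1 or 3. The pan-leukocyte markers summed to 585 to 784 CPM in F4/80-high regions, 157 to 189 CPM in F4/80-low regions and 67.2 to 86.5 CPM in non-cystic regions. The macrophage markers summed to 2115 to 5651 CPM in F4/80-high, 397 to 485 CPM in F4/80-low regions and 102 to 131 CPM in non-cystic regions. They include Adgre1, the gene of the protein by which the regions were cut. Neither the order of these macrophage sums nor the call of all 10 macrophage markers in F4/80-high regions is thus a finding. Macrophages are leukocytes, so the pan-leukocyte markers are not independent of this cut. T and NK cell markers summed to 79.2 to 83.2 CPM in F4/80-high, 19.7 to 28.4 CPM in F4/80-low regions and 5.82 to 17.6 CPM in non-cystic regions. Proximal tubule markers summed to 612 to 5209 CPM in F4/80-high, 22197 to 47870 CPM in F4/80-low regions and 27926 to 38027 CPM in non-cystic regions. No marker was at 0 in a whole region type. In F4/80-low against non-cystic regions 1.51% of all tested genes were called higher. No dendritic, T, NK or B cell marker was among them, while 3 of 6 pan-leukocyte, 4 of 10 macrophage and 4 of 6 fibroblast markers were. Without replicate 2 of F4/80-low kidney 2 these counts were 0 pan-leukocyte, 1 macrophage and 4 fibroblast markers, and without kidney 1 they were all 0. The part of these cells in the class I differences was not tested.

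The counts of the 10 genes were set against those of Ptprc, which encodes the leukocyte surface protein CD45. Ptprc averaged 107 ± 15.9 CPM in F4/80-high, 33.7 ± 1.52 CPM in F4/80-low regions and 15.6 ± 2.76 CPM in non-cystic tissue (SD, n = 3), and was higher by 2.78 ± 0.18 in F4/80-high against non-cystic regions (adjusted p = 1.595e-05). That is more than the change of 9 of the 10 genes, all but Psmb8. Tapbp had 1.13 ± 0.13 counts per Ptprc count in F4/80-high regions, 2.47 ± 0.34 in F4/80-low regions and 3.33 ± 0.37 in non-cystic regions. H2-K1 had 5.94 ± 0.99 per Ptprc count in F4/80-high regions, 8.56 ± 0.70 in F4/80-low regions and 11.5 ± 2.87 in non-cystic regions, and B2m had 16.4 ± 3.71, 19.3 ± 1.49 and 24.2 ± 3.18 in these groups. Of the 10 genes, 8 were lower per Ptprc count in F4/80-high than in non-cystic tissue in 3 of 3 kidneys. Nlrc5 was lower in 2 of 3 kidneys. Psmb8 had 1.43 ± 0.31 counts per Ptprc count in F4/80-high regions, 1.67 ± 0.53 in F4/80-low regions and 1.15 ± 0.51 in non-cystic regions, with F4/80-low above non-cystic regions in 3 of 3 kidneys and F4/80-high above non-cystic regions in 2 of 3. These ratios are descriptions with no test.

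**Figure D5:**
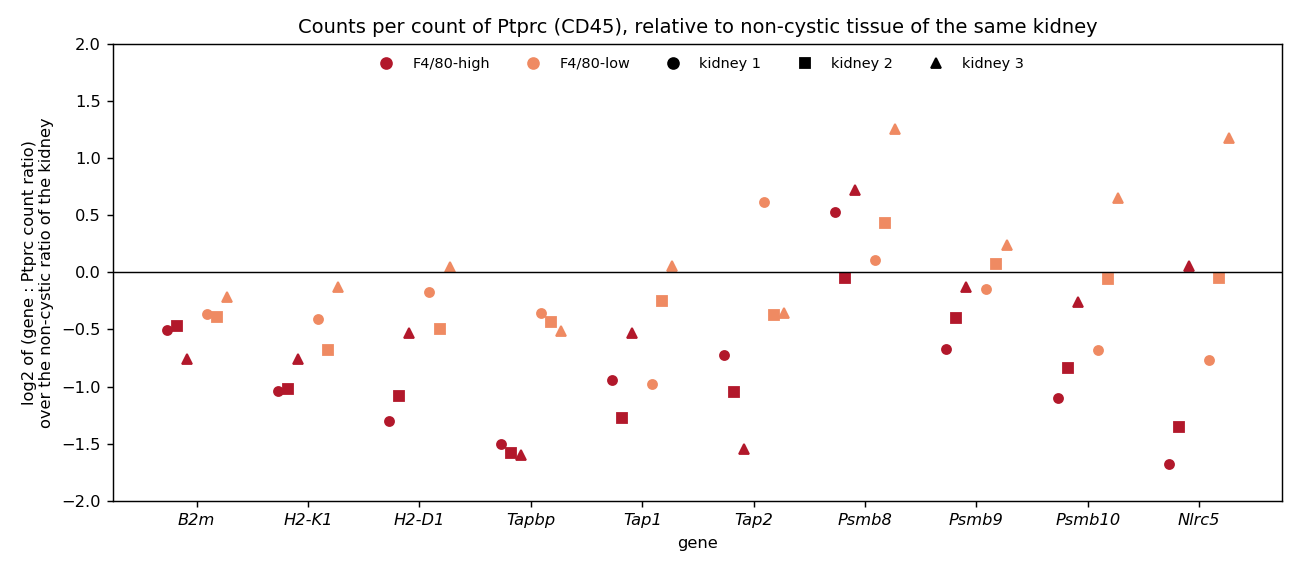
Count of each gene per count of Ptprc in F4/80-high and F4/80-low regions, as a log2 value relative to the non-cystic region of the same kidney (point shape). Most F4/80-high points lie below 0, with Tapbp lowest as a group between -1.60 and -1.499, and for Psmb8 they lie between -0.05 and 0.72.

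Over the 9 sums, with the level of each kidney taken out, the genes most like the mean of the 10 were Slamf9 (Pearson r = 0.998), Rcn1 (0.998), Ccr2 (0.997), Nfkbiz (0.997) and Col1a2 (0.997), among named genes whose log2 CPM averaged 3 or more. Those most like Nlrc5 were Tent5a (0.996), Ccl5 (0.988), Ifitm1 (0.988), Tubb6 (0.986) and Irf1 (0.984). The 9 sums share 3 kidneys and the region differences dominate these values, so they describe likeness of pattern only.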

How the data were processed

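Per the labels' protocols, RNA of microdissected frozen kidney tissue was extracted in TRI reagent and made into unstranded libraries with a low-input kit. The table deposited by the authors holds raw counts, whole numbers with no scaling. HTSeq 0.11.0, fastp 0.20.1 and FastQC 0.11.9, and mm10 (GRCm38) as the build, appear in the submitters' processing notes, with no role stated. Aligner, annotation release and strand setting: not given in the sources used here. No molecular identifiers are recorded.

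Both libraries of each kidney and region share a kidney, so their counts were added, giving 9 sums. edgeR 4.0.16 in R 4.3.3 (TMM scaling, filterByExpr by region type, robust quasi-likelihood test) was run over all 3 region types with the kidney as a block, which left 4 residual degrees of freedom. The 16034 tested genes held 99.84% of the counts, and p-values were adjusted over all of them (Benjamini-Hochberg, 0.05). The kidney pairs the regions because they were cut from the same kidney. Deviations of the sums of a kidney from the region means correlated by 0.006 to 0.112 in kidney 1, 0.108 to 0.275 in kidney 2 and -0.154 to 0.104 in kidney 3. Count ratios were tested by exact permutation of region labels within kidneys. The scripts were tested on simulated data. Replicate libraries differed beyond sampling noise in all 9 pairs, so none was taken as a repeat deposit of another. If kidneys 1 and 3, which share a labelled age, are not from separate mice, p-values measure only the spread between these 3 kidneys.

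The 10 genes and the 18 other gene lists were chosen with earlier results of these data known. All 10 genes are named, as are the 5 genes most alike in pattern. Of each other list up to 4 tested genes with the smallest p in F4/80-high against non-cystic regions are named, not all of which are printed. Fcgrt, Nfyc, Jak2, Bst2, Krt18 and Cdh16 fall outside this rule and are named as called genes of their lists. Lists are described by counts and medians without a test. H2-T10 and Mx1 were not analysed here. Levels per kilobase use the principal transcript of GENCODE M21. The alternatives were other scalings, filters and tests (DESeq2 1.42.0, limma 3.58.1), single replicate sets, and leaving out each kidney and library.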

Additional observations from a re-analysis of the deposited data

Results flagged for a closer look

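In 42 groups of 6 libraries (levels of the 10 genes and count ratios between them), 7 had a library far from the other 5 by Dixon's test. Chance flags about 1 group in 20 where the values are independent. Here the 6 libraries come from 3 kidneys and the groups reuse the same 18 libraries, so the number of flags cannot be set against that rate. Replicate 2 of F4/80-low kidney 2 stood apart for 3 genes. It had 126.3 CPM of Psmb8 against 32.6 to 54.8 CPM in the other F4/80-low libraries, 70.15 CPM of Psmb10 against 26.8 to 36.7 CPM, and 6.84 CPM of Nlrc5 against 2.60 to 3.59 CPM. Spp1 took 8.898% of its counts, against 0.241% to 2.09% in the other F4/80-low libraries and 6.41% to 14.07% in F4/80-high libraries. Replicate 2 of F4/80-high kidney 1 had 26.72 CPM of Tap2 against 6.42 to 13.5 CPM in the other F4/80-high libraries. The ratio of B2m counts to H2-K1 plus H2-D1 counts was 2.525 in replicate 1 of F4/80-high kidney 1, against 1.08 to 1.55 in the other F4/80-high libraries, and 1.423 in replicate 1 of non-cystic kidney 3, against 0.984 to 1.12 in the other non-cystic libraries. The ratio of Tapbp to B2m counts was 0.1624 in replicate 2 of non-cystic kidney 3, against 0.130 to 0.140 in the other non-cystic libraries.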

How the results depend on the processing

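All 10 genes kept a positive difference in all 3 comparisons under all 34 alternatives. The number called higher in F4/80-high against non-cystic regions stayed at 9 or 10 of 10. In F4/80-low against non-cystic regions, where the 9 sums gave 3, it was 6 with DESeq2's Wald test, 7 with 18 libraries and the kidney as a block, 6 with the kidney as a random effect in limma voom, 0 with the libraries of replicate number 1 alone, 1 with those of number 2 alone, and 0 to 6 when a kidney or library was left out. In F4/80-high against F4/80-low regions, where the sums gave 7, it was 9 with total counts, 6 to 8 with the other scalings, filters and tests and number 1 alone, 3 with number 2 alone and 1 to 8 when a kidney or library was left out. The replicate numbers do not pair the libraries (differences between numbers 1 and 2 correlated by -0.095 to 0.114 between regions of a kidney), and with the kidney and this number as a replicate block the F4/80-low count was 7. The libraries of a kidney are not independent, so the fits on 18 libraries take more replication than the kidneys give. Fits without a kidney leave fewer residual degrees of freedom, so a call lost in such a fit is not by itself a smaller difference. The log2 count ratios in F4/80-high minus non-cystic regions ran from 3.52 to 4.09 for Psmb8 to Psmb5, 2.55 to 3.08 for Psmb9 to Psmb6 and 2.47 to 3.03 for Psmb10 to Psmb7 when a kidney or library was left out. With 2 kidneys the smallest adjusted p that can be had is 0.1667, so none could pass. Signs turned, apart from Psme3, in uncalled differences. With total counts, Psmb6 was at 0.080 and Psmb7 at 0.057 in F4/80-low against non-cystic regions, Psmb5 at 0.031, Psmb6 at 0.21 and Psme3 at 0.035 in F4/80-high against non-cystic regions, and Psmb6 at 0.13 in F4/80-high against F4/80-low regions. With number 2 alone, Tapbpl was at -0.0036 and Gbp7 at -0.16 in F4/80-high against F4/80-low regions. When a kidney or library was left out, F4/80-low against non-cystic differences ran from -0.26 to 0.82 for Mr1, -0.18 to 0.26 for Psmb5, -0.29 to 0.26 for Psmb6 and -0.23 to 0.10 for Psmb7, and the F4/80-high against F4/80-low difference of Psmb6 ran from -0.70 to 0.016. The cause of these changes was not tested. Depth limits Nlrc5 most, with 11 to 105 counts a sum.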
